A study of Mus musculus with 33 samples.

Results

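The 9 genes of glucose production and glycogen storage described here were chosen by name and found through their Ensembl identifiers in all 6 tables: the gluconeogenic genes Pck1, G6pc, Fbp1 and Pcx, the pyruvate kinase gene Pklr, the glycogen genes Pygl and Gys2, the glucose transporter gene Slc2a2 and the coactivator gene Ppargc1a. They are 9 of 50420 gene identifiers in the series, and all 9 passed the filter on low values in each of the 6 tables. Male mice aged 15 to 23 weeks gave liver and kidney RNA for sequencing, and they were of the inbred strains C57BL/6J (B6) or CAST/EiJ (CAST) or were F1 offspring of B6 females and CAST males. Mice received tunicamycin (TM), an inhibitor of N-linked glycosylation that causes stress of the endoplasmic reticulum (ER), at 1 mg/kg in DMSO, and control mice received DMSO alone, both by intraperitoneal injection. The labels give 24 h from injection to euthanasia and the methods of the paper give 8 h. The liver groups held 2 TM and 3 control libraries in B6, 3 TM and 2 control libraries in CAST, and 2 TM and 3 control libraries in F1, and each kidney group held 3 libraries. The authors had removed samples that did not cluster with their treatment, and food intake and blood glucose were not analysed here.

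Liver and the proximal tubule of the kidney are the organs that make glucose from lactate, amino acids and glycerol. Pyruvate carboxylase (Pcx) turns pyruvate into oxaloacetate, cytosolic phosphoenolpyruvate carboxykinase (Pck1) turns oxaloacetate into phosphoenolpyruvate, fructose bisphosphatase (Fbp1) acts further up the same route, and glucose 6-phosphatase (G6pc) releases free glucose. Liver also stores glucose as glycogen, which glycogen synthase (Gys2) builds and glycogen phosphorylase (Pygl) breaks down, while Pklr runs the last step of glycolysis in the other direction, Slc2a2 carries glucose through the membrane and Ppargc1a is a coactivator that switches on gluconeogenic genes in fasting.

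The promoters of 3 genes are printed. Pck1 and Pygl were called lower with TM in all 3 livers and in no kidney. For both, the change differed between liver and kidney over the 3 genotypes. G6pc was called lower in all 3 kidneys and in 2 of 3 livers. Each run holds the 250 bases before the RefSeq start of the gene in GRCm38.p6, and capitals mark matches on either strand. The motifs searched were the C/EBP-ATF element TGATGNAA, the box with the letters CCAAT, the TATA box with the letters TATAAA, the cAMP response element TGACGTCA, the form of it in Pck1, TTACGTCA, and the FOXO element GTAAACA.
Pck1, chr2:173152823-173153072, plus strand: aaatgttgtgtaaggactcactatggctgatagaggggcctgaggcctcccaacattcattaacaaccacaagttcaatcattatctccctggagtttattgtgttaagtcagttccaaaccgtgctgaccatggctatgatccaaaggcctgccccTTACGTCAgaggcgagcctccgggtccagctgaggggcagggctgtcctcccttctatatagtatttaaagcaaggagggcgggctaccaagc
G6pc, chr11:101367466-101367715, plus strand: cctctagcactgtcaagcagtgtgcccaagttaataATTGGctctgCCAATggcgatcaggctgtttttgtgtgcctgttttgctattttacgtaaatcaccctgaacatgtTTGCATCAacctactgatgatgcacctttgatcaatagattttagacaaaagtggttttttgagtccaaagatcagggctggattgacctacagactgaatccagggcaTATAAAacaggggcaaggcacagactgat
Pygl, chr12:70227684-70227933, minus strand: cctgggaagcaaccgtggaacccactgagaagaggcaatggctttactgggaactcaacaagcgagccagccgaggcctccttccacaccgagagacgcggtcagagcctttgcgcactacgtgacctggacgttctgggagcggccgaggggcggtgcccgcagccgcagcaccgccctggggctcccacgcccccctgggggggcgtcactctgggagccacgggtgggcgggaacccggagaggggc
Of the 8 genes with a window in the RefSeq table (Gys2 was not matched), only Pck1 held TTACGTCA, which stood in 0.447% of all 32851 windows and was added to the search after the windows had been read. The G6pc window held a C/EBP-ATF element 138 to 131 bases before the start, on the minus strand, a motif found in 3.45% of windows and in no other of the 8 genes. It also held the CCAAT letters on each strand and a TATA box 29 to 24 bases before the start. CCAAT stood in 5 of the 8 genes and in 33.8% of windows, and TATAAA in G6pc and Pklr and in 12.4% of windows. Neither TGACGTCA, held by 1.55% of windows, nor GTAAACA, held by 3.17%, was found in a window of the 8 genes. These matches describe the letters only, and the binding of a factor was not measured.

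The values are normalized counts, that is read counts per gene divided by a size factor of the library, and the 6 tables, 1 per tissue of a genotype, were normalized apart. Libraries held from 3355262 to 23094521 reads (median 13143216). Olfactory and vomeronasal receptor genes took more than 400 CPM (counts scaled to a common library size) of the reads outside predicted genes in 5 libraries: B6 liver TM 3 (980 CPM), B6 liver control 2 (645 CPM), F1 liver TM 2 (2888 CPM), F1 liver control 2 (647 CPM) and F1 kidney control 1 (1606 CPM), the last also the one with the fewest reads. The predicted gene Gm10800 took 61.5% of the reads of F1 liver control 2. Some results that rest on these libraries are also given without them, mainly those whose call changed. For Pck1, Fbp1, Pklr, Pygl and Gys2 in liver, and G6pc in F1 liver, the values without them are not printed. Leaving them out leaves 1 TM library in the liver groups of B6 and F1 alike, and a lone library is then assumed to vary like the others. Taken over all genes tested, the median log2 fold change was 0.21 for F1 liver and -0.13 for F1 kidney (0.04 and -0.10 with TMM scaling) and lay within 0.1 of 0 in the other 4 tables.

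**Figure D1:**
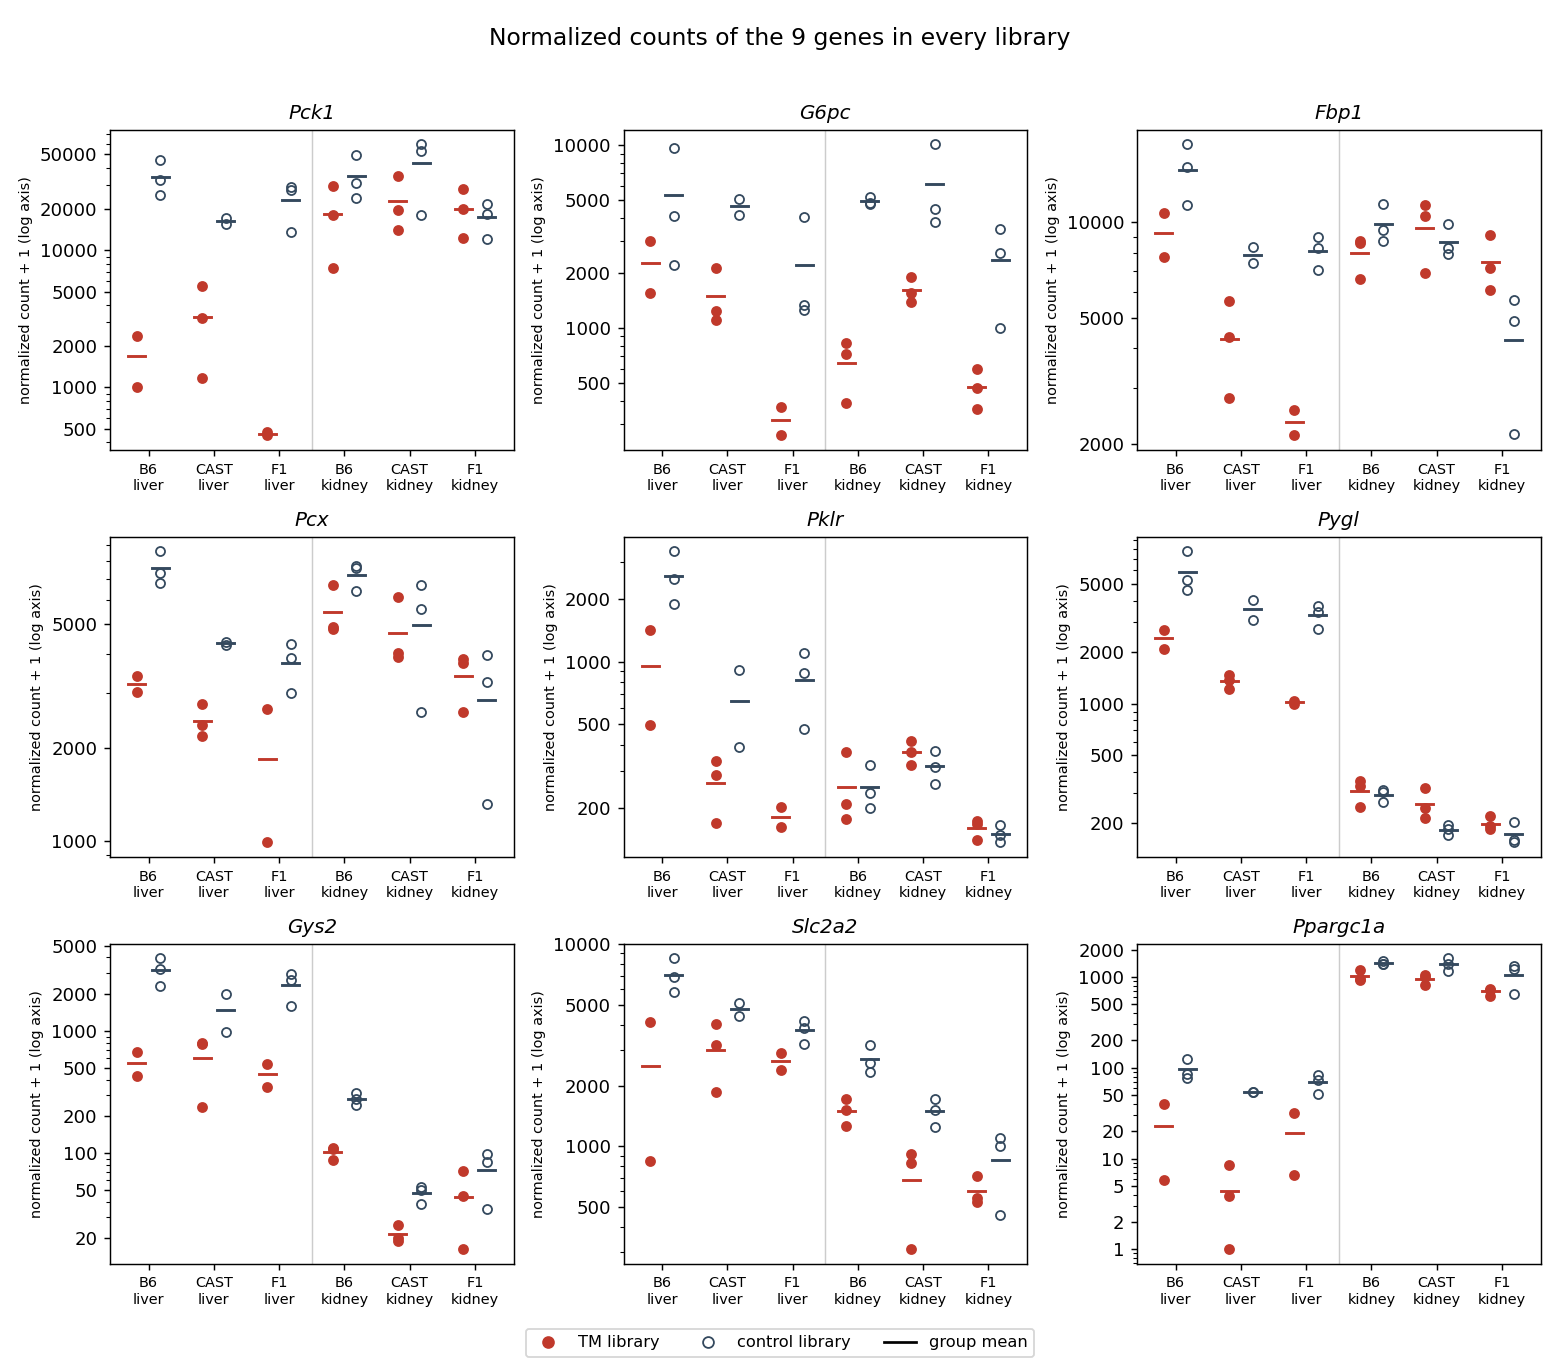
Normalized count plus 1 of each gene (log axis, 1 panel per gene) in every library, with TM libraries as filled points to the left of the open control points of the same genotype and tissue, and bars for group means. In liver all 9 genes had a lower mean with TM in each genotype, and in kidney the points of Pklr and Pck1 overlapped in every genotype while those of G6pc lay apart in all 3.

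In liver each of the 9 genes had a lower mean with TM than in controls in all 3 genotypes. Log2 values of the normalized count plus 1 were tested with limma (moderated test with trend), and a gene was called at a Benjamini-Hochberg adjusted p below 0.05 over all genes tested and at least a 1.5-fold change. By this rule 6 of 9 were called lower in B6 liver, where 6.45% of all tested genes were called lower, 7 of 9 in CAST liver against 10.4% of genes, and 7 of 9 in F1 liver against 4.15%. None was called higher, a call made for 4.8%, 11.1% and 3.42% of genes in B6, CAST and F1 liver. Their median log2 fold changes were -1.58 in B6, -1.39 in CAST and -2.10 in F1 liver, against 0.09, -0.04 and 0.21 over all genes tested. Every TM library lay below every control library for 8 genes in B6 liver, 9 in CAST liver and 9 in F1 liver, which held for 19.9%, 25.6% and 15.9% of all genes. In bulk tissue fewer cells of a type and less RNA per cell cannot be told apart.

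Fewer of the genes were called in kidney. There 3 of 9 genes were called lower in B6, against 7.77% of all genes, 2 of 9 in CAST, against 4.7%, and 1 of 9 in F1, against 2.57%, and none was called higher (9.73%, 8.69% and 7.54% of all genes). The medians of the 9 were -0.47 in B6, -0.52 in CAST and 0.09 in F1 kidney, beside -0.01 in B6, -0.05 in CAST and -0.13 in F1 over all genes. TM libraries lay below all control libraries for 5, 4 and 1 of the 9 genes in B6, CAST and F1 kidney, and this held for 18.7%, 14.9% and 14.1% of all genes.

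**Figure D2:**
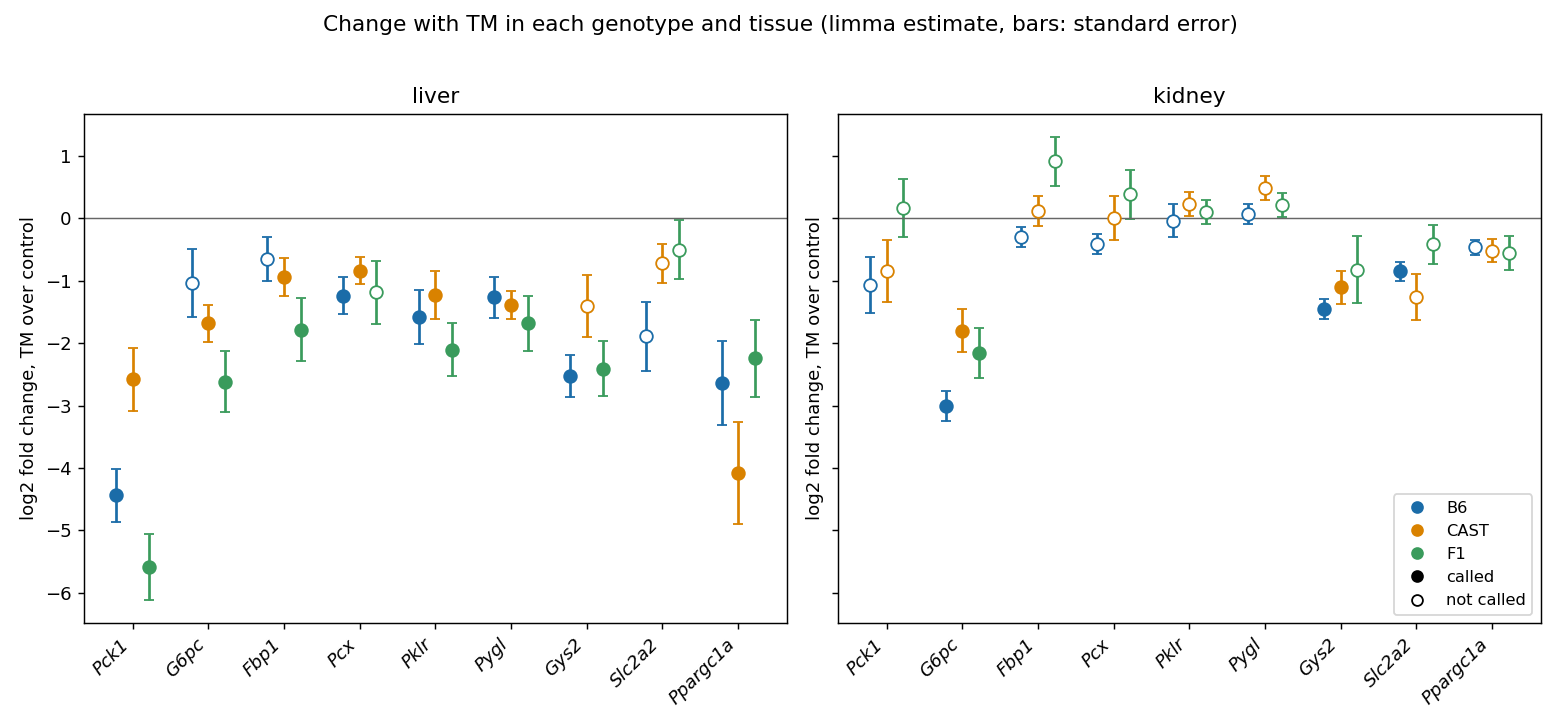
Log2 fold change (TM over control) of each gene with its standard error in liver (left) and kidney (right), coloured by genotype, with filled points for called changes. Pck1 in B6 and F1 liver and Ppargc1a in CAST liver lie below -4, and in kidney G6pc is the gene called in all 3 genotypes.

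Pck1, the rate-controlling enzyme of gluconeogenesis from pyruvate, fell in all 3 livers, and its log2 fold change was the most negative of the 9 genes in B6 and F1 liver. In B6 liver it had 2374.5 and 1005 normalized counts with TM, against 32539, 25455 and 45336 in controls. In CAST liver the TM libraries had 3226, 5447 and 1167 and the controls 15664 and 17076, and in F1 liver the TM libraries had 471 and 445 and the controls 27473, 13501 and 28743. No TM library reached a control library, and the TM mean as a share of the control mean was 0.0491 for B6, 0.200 for CAST and 0.0197 for F1. The log2 fold changes were -4.44 ± 0.43 in B6 (SE, limma adjusted p = 0.00024), -2.58 ± 0.51 in CAST (0.00544) and -5.58 ± 0.53 in F1 (1.01e-06), and each call was kept when any 1 library was left out.

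In kidney Pck1 stayed abundant under TM, with 7419, 29637 and 18184 in B6 TM libraries against 49586, 31085 and 24268 in controls. CAST TM kidneys had 19617, 34702 and 14033 against 18033, 59269 and 52714 in controls, and F1 TM kidneys 27910, 19925 and 12227 against 12189, 21806 and 18277. The groups overlapped in all 3 genotypes. The log2 fold changes of -1.08 ± 0.45 in B6, -0.85 ± 0.50 in CAST and 0.16 ± 0.47 in F1 did not pass the test (limma adjusted p = 0.118, 0.31 and 0.856). Pck1 was called in B6 kidney without TM library 2 (log2 fold change -1.53, adjusted p = 0.0266) and in CAST kidney without control library 1 (-1.40, adjusted p = 0.0216), whose 18033 counts lie far below those of the other controls. Without F1 kidney control library 1, which has many receptor reads, the F1 value was -0.08.

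G6pc, the catalytic subunit of glucose 6-phosphatase in liver and kidney, fell in the kidney of every genotype. B6 TM kidneys had 386, 826 and 717 normalized counts against 4807, 4785 and 5229 in controls, CAST TM kidneys 1384, 1892 and 1548 against 3800, 4461 and 10102, and F1 TM kidneys 597, 468 and 357 against 999, 3487 and 2573. TM and control libraries lay apart in each. The log2 fold changes were -3.01 ± 0.24 in B6 (limma adjusted p = 2.19e-05), -1.80 ± 0.34 in CAST (0.00847) and -2.16 ± 0.40 in F1 (0.00745), and in F1 the call was lost when limma was run without its trend (adjusted p = 0.0825).

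In liver G6pc also fell in CAST and F1. The TM libraries had 2135, 1245 and 1111 in CAST against 5093 and 4174 in controls, and 369 and 257 in F1 against 1343, 1259 and 4043 in controls, with log2 fold changes of -1.68 ± 0.29 and -2.62 ± 0.48 (limma adjusted p = 0.00304 and 0.00143). The F1 call was lost without TM library 1 (adjusted p = 0.0665). In B6 liver the groups overlapped, since TM had 1550 and 2992 and controls had 4105, 2200 and 9673 (log2 fold change -1.04 ± 0.55, adjusted p = 0.301). Both B6 libraries that overlap, TM 3 and control 2, are among those with many receptor reads. Without them, which left 1 TM library, G6pc in B6 liver had a log2 fold change of -2.02. Leaving out other libraries moved it the opposite way, to -0.57 without TM library 1 (adjusted p = 0.691) and to -0.48 without control library 3 (0.774).

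Fbp1 and Pcx, which act on the route between pyruvate and glucose, had less negative mean log2 fold changes over the 3 livers (-1.13 for Fbp1 and -1.09 for Pcx) than Pck1 (-4.20) and G6pc (-1.78). Fbp1 had 2562 and 2125 counts in F1 TM livers against 8256, 7052 and 8961 in controls (log2 fold change -1.79 ± 0.51, limma adjusted p = 0.0324). In CAST it had 4353, 5652 and 2791 against 8350 and 7432 (-0.94 ± 0.30, adjusted p = 0.0483). It was not called in B6 liver, with 10713 and 7784 in TM against 14954, 11317 and 17565 in controls (-0.66 ± 0.35, adjusted p = 0.315). The F1 call was lost without TM library 1, TM 2, control 1 or control 3 (adjusted p from 0.153 to 0.28) and the CAST call without TM library 1, TM 3, control 2 or control 3 (from 0.0646 to 0.184).

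Pcx had 3014 and 3397 counts in B6 TM livers against 6827, 8620 and 7335 in controls (-1.24 ± 0.30, limma adjusted p = 0.0232) and 2363, 2769 and 2182 in CAST TM livers against 4305 and 4380 (-0.84 ± 0.22, adjusted p = 0.0211). In F1 liver the TM libraries stood far apart at 2672 and 986, the second being the library with the most receptor reads, against 3894, 2995 and 4330 in controls (-1.19 ± 0.50, adjusted p = 0.193). Without the libraries with many receptor reads, which left 1 TM library, the F1 value was -0.62. The B6 call of Pcx was lost without TM library 1, control 1 or control 3 (adjusted p from 0.0852 to 0.129) and the CAST call without TM library 1, TM 3, control 2 or control 3 (from 0.0513 to 0.106).

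Neither Fbp1 nor Pcx was called in a kidney. Fbp1 had 9119, 7167 and 6093 counts in F1 TM kidneys, each above the 2156, 5695 and 4893 of controls (0.91 ± 0.39, limma adjusted p = 0.176), and without F1 control library 1 the value was 0.48. In B6 and CAST kidney its log2 fold changes were -0.31 and 0.12, and those of Pcx ran from -0.41 in B6 to 0.38 in F1 (-0.10 without F1 control library 1), with overlap of TM and control libraries in all 3 genotypes.

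Pklr, the pyruvate kinase of liver and red cells, fell in liver with the gluconeogenic genes although it serves glycolysis. It had 494 and 1419 counts in B6 TM livers against 1886, 2486 and 3378 in controls, 335, 284 and 168 in CAST TM livers against 911 and 388, and 199 and 161 in F1 TM livers against 881, 477 and 1096. The log2 fold changes were -1.58 ± 0.44, -1.24 ± 0.39 and -2.10 ± 0.42 (limma adjusted p = 0.0429, 0.0448 and 0.00296). The B6 call was lost without TM library 1 (-0.82, adjusted p = 0.342), control 2 or control 3, the CAST call without TM library 2, TM 3 or control 2 (-0.62, adjusted p = 0.353), and the F1 call without TM library 1 (adjusted p = 0.065). In kidney, where Pklr was low, the values of TM and control libraries overlapped in every genotype, with log2 fold changes from -0.04 to 0.23.

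Pygl, the glycogen phosphorylase of liver, fell in all 3 livers. TM libraries had 2100 and 2712 counts in B6 against 5293, 4636 and 7769 in controls, 1478, 1219 and 1371 in CAST against 3100 and 4043, and 1001 and 1041 in F1 against 3741, 2733 and 3433. The log2 fold changes were -1.27 ± 0.33 in B6 (limma adjusted p = 0.0326), -1.39 ± 0.22 in CAST (0.00201) and -1.68 ± 0.44 in F1 (0.02). The CAST call was kept without any 1 library, the B6 call was lost without TM library 1, control 1 or control 3 (adjusted p from 0.0846 to 0.187), and the F1 call without TM library 1, TM 2, control 1 or control 3 (from 0.0659 to 0.163).

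In kidney Pygl was low and not called. CAST TM kidneys had 215, 322 and 244 counts, each above the 194, 184 and 170 of controls (0.49 ± 0.19, limma adjusted p = 0.136). In B6, with 331, 351 and 248 in TM kidneys against 311, 305 and 266 in controls, and in F1, with 220, 193 and 184 against 159, 204 and 154, the groups overlapped, and the log2 fold changes were 0.06 and 0.21.

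Gys2, the liver isoform of glycogen synthase, fell in B6 and F1 liver and in B6 and CAST kidney. It had 425 and 676 counts in B6 TM livers against 2351, 3200 and 3950 in controls (-2.53 ± 0.33, limma adjusted p = 0.00121), and 536 and 349 in F1 TM livers against 2946, 1593 and 2593 (-2.41 ± 0.44, adjusted p = 0.00121). In CAST liver the groups lay apart, with 789, 778 and 238 in TM and 1990 and 982 in controls, but the change was not called (-1.41 ± 0.49, adjusted p = 0.0682). Without CAST TM library 1 it was called (-1.70, limma adjusted p = 0.0273). Both glycogen genes thus lay lower in every TM liver than in any control liver of the same genotype, the one that builds the polymer and the one that breaks it down.

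In kidney Gys2 was low. B6 TM kidneys had 107, 108 and 86.9 counts against 311, 274 and 248 in controls (-1.45 ± 0.16, limma adjusted p = 0.000162), and CAST TM kidneys had 19.1, 24.8 and 18.2 against 36.9, 51.6 and 48.9 (-1.11 ± 0.26, adjusted p = 0.0239). The CAST call was lost when any library other than control 1 was left out (adjusted p from 0.0513 to 0.0972). F1 kidneys overlapped, with 70.2, 43.6 and 15.3 in TM and 33.8, 97.1 and 83.7 in controls (-0.83 ± 0.53, adjusted p = 0.381).

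Slc2a2, the low-affinity glucose transporter of hepatocytes and of the early proximal tubule, was called lower in B6 kidney and in no other table. There TM libraries had 1723, 1507 and 1257 counts against 3182, 2335 and 2579 in controls (-0.85 ± 0.15, limma adjusted p = 0.00335). In CAST kidney the values were 918, 827 and 309 with TM against 1247, 1519 and 1708 in controls (-1.26 ± 0.37, adjusted p = 0.0545). With the replicate number as a block, which assumes that same-numbered TM and control libraries pair, Slc2a2 was called there too (-1.26, limma adjusted p = 0.00113). It was also called with DESeq2 (-1.14, adjusted p = 0.0129), without the filter on low values (0.0403) and without TM library 1 (0.0362) or control library 1 (0.0368). F1 kidneys gave -0.42 ± 0.32 (adjusted p = 0.456), and -0.82 (adjusted p = 0.00411) without control library 1, which has many receptor reads.

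In liver Slc2a2 lay lower in each TM library than in any control of its genotype, and no liver passed the test, B6 by a narrow margin. B6 TM livers had 850 and 4131 counts against 5793, 6867 and 8531 in controls (-1.90 ± 0.55, limma adjusted p = 0.0515). Without the libraries with many receptor reads, TM 3 among them, which left 1 TM library, the log2 fold change was -3.05. Without TM library 1 instead it was -0.76 (adjusted p = 0.403), so the size of the B6 value rests on that library. The B6 value was called with DESeq2 (-1.49, adjusted p = 0.0387), without the filter (0.00873), with a pseudocount of 0.5 (0.0488), with a minimum mean of 20 (0.0477) and with the median fold change set to 0 (0.0419), and not with edgeR (0.205) or without limma's trend (0.263). CAST TM livers had 4022, 3162 and 1858 against 5126 and 4396 (-0.73 ± 0.31, adjusted p = 0.13). The CAST value was called without TM library 1 (-0.97, limma adjusted p = 0.045). It was also called with the replicate block (0.00426), although the numbers are not shown to pair in liver. F1 TM livers had 2886 and 2384 against 3848, 3209 and 4184 (-0.51 ± 0.47, adjusted p = 0.74).

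Ppargc1a, which encodes the coactivator PGC-1 alpha, was scarce in liver and fell there in every genotype. B6 TM livers had 4.73 and 38.7 counts against 76.1, 124 and 85.1 in controls, CAST TM livers 2.88, 7.39 and 0 against 53.7 and 52.7, and F1 TM livers 5.55 and 30.4 against 71.7, 50.7 and 82.2. In the TM libraries these values rest on 0 to 49 reads, and in CAST the log2 fold change was -4.50 with a pseudocount of 0.5 and -2.89 with one of 5. The log2 fold changes were -2.64 ± 0.67 in B6 (limma adjusted p = 0.0309), -4.09 ± 0.82 in CAST (0.006) and -2.24 ± 0.62 in F1 (0.0277). The higher TM library of B6 and that of F1 are those with many receptor reads. Without such libraries, which left 1 TM library in each, the values were -3.83 and -3.57. In B6 and F1 the calls were lost with edgeR (adjusted p = 0.126 and 0.169) and with DESeq2 (0.0525 and 0.107). They were also lost without B6 TM library 1 (-1.24, adjusted p = 0.157), control 2 or control 3, without CAST control 2 or control 3 (0.0569 and 0.0558), and without F1 TM library 1 (-1.11, adjusted p = 0.449), control 1 or control 3.

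In kidney Ppargc1a was far more abundant and lay 0.652 to 0.726 times the control mean in the 3 genotypes. B6 TM kidneys had 956, 1195 and 934 counts against 1380, 1488 and 1382 in controls, and the difference passed the adjusted p but not the 1.5-fold limit (-0.47 ± 0.12, limma adjusted p = 0.0209). CAST TM kidneys had 822, 1049 and 1005 against 1155, 1385 and 1611 (-0.52 ± 0.18, adjusted p = 0.0973). F1 TM kidneys had 621, 723 and 730 against 645, 1315 and 1223 (-0.55 ± 0.27, adjusted p = 0.243), and without control library 1 Ppargc1a was called (-0.88, adjusted p = 0.00113).

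Some settings bear on the liver calls as a whole. Without limma's trend no gene of the 9 was called in B6 or F1 liver and 4 were in CAST liver, and with edgeR 3 were called in B6 liver. Without the filter on low values 1 gene was called in F1 liver. Without the libraries with many receptor reads 3 genes were called in F1 kidney. In B6 and F1 liver this left 1 TM library, and calls are not counted there. The shares of all genes called are given for the main fit only.

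Markers of the main cell type were lower in every TM library than in any control library of the same table, except in F1 kidney. The summed level of 5 hepatocyte markers (Alb, Apoa1, Ttr, Cyp2e1 and Cps1) was 53820 to 55380 CPM in B6 TM livers against 91490 to 109100 in controls, 51500 to 64550 in CAST TM livers against 81850 to 119500, and 25470 to 40430 in F1 TM livers against 67890 to 85470. In kidney, 5 proximal tubule markers (Lrp2, Slc34a1, Slc22a6, Kap and Miox) summed to 8906 to 11820 CPM in B6 TM kidneys against 19100 to 22130 in controls, 8520 to 10060 in CAST TM kidneys against 14930 to 23310, and 10180 to 11840 in F1 TM kidneys against 11110 to 16200. Their part in the changes of the 9 genes was not tested. The labelled tissues matched their markers, since proximal tubule markers summed to at most 17.3 CPM in any liver library and hepatocyte markers to at most 1488 CPM in any kidney library.

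Of the other cell types, 5 adipocyte markers summed to 37.0 to 217 CPM in TM livers against 5.29 to 31.9 in control livers. Cidec made up most of it, at 64.3, 173 and 111.5 CPM on average in B6, CAST and F1 TM livers against 16.0, 8.22 and 5.24 in controls, while the defining marker Adipoq averaged at most 0.573 CPM in any liver group. Summed pancreatic acinar markers were at most 15.7 CPM in TM livers against up to 584 in controls, and at most 17.2 in TM kidneys against up to 39.8. Immune markers ran from 26.1 to 84.9 CPM in liver and from 12.8 to 44.0 in kidney, red cell markers from 228 to 1932 in liver and from 274 to 687 in kidney, and adrenal cortex markers reached 37.2 CPM in F1 control kidneys and 7.69 CPM in liver. Other tubule markers (Umod, Slc12a1 and Aqp2) summed to 703 to 3218 CPM in kidney and at most 6.24 in the B6 and F1 livers. The part of these cells in the results was not tested.

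The contrast between liver and kidney was then tested as an interaction of tissue and treatment, in which a scale factor of a table cancels. The main fits treated liver and kidney libraries as independent, although by the methods the mice gave both organs. Over the 3 genotypes together, 6 of 9 genes differed, where 14.4% of all tested genes did: Pck1, Fbp1, Pcx, Pklr, Pygl and Ppargc1a. All 6 had a more negative log2 fold change in liver. The remaining genes, G6pc, Gys2 and Slc2a2, are those called lower in at least 1 kidney.

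For Pck1 the mean log2 fold change over genotypes was -4.20 ± 0.35 in liver, beside -0.59 ± 0.31 in kidney, which makes a difference of -3.61 ± 0.47 (SE, limma adjusted p = 2.57e-06). For Ppargc1a it was -2.99 ± 0.37 in liver and -0.52 ± 0.33 in kidney, and the difference was -2.47 ± 0.49 (adjusted p = 0.000622). Pygl, at -1.45 ± 0.13 in liver and 0.26 ± 0.12 in kidney, differed by -1.70 ± 0.17 with the smallest p of the 9 genes (5.41e-08).

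The enzymes Fbp1, Pcx and Pklr had liver means of -1.13, -1.09 and -1.64 and kidney means of 0.24, -0.01 and 0.10. Their differences were -1.37 ± 0.26 (limma adjusted p = 0.00045), -1.08 ± 0.31 (0.0155) and -1.74 ± 0.31 (0.000195). The call of Pcx was lost with the replicate block (adjusted p = 0.0563) and without F1 liver TM library 2 (0.061), and the other 5 calls were kept under every setting tried.

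G6pc, at -1.78 ± 0.31 in liver and -2.32 ± 0.28 in kidney, gave a difference of 0.54 ± 0.42 that was not called (limma adjusted p = 0.454). Gys2 had means of -2.12 in liver and -1.13 in kidney and a difference of -0.99 ± 0.39 (0.0893), and Slc2a2 had -1.04 in liver and -0.84 in kidney and a difference of -0.20 ± 0.36 (0.776). A p that misses the threshold does not show that the tissues respond alike in these genes.

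**Figure D3:**
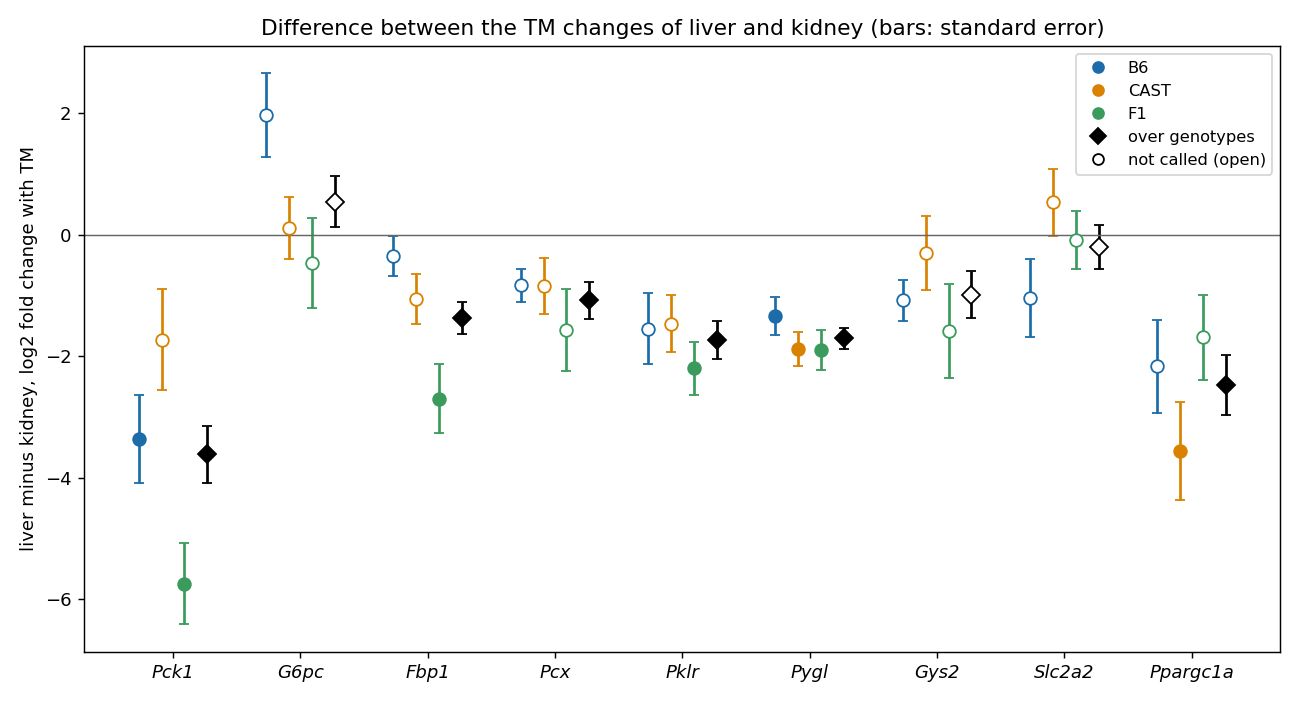
Liver minus kidney difference of the log2 fold change with TM for each gene, with its standard error, in B6, CAST and F1 (circles) and over the 3 genotypes (black diamonds), filled where called. Pck1 reaches -5.75 in F1, Pygl is filled in each genotype (in B6 and F1 the call is lost with the replicate block), and G6pc lies above 0 in B6.

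Within single genotypes fewer differences were called, and of these only Pygl in CAST was kept with the replicate number as a block. In B6 they were Pck1 (-3.36 ± 0.73, limma adjusted p = 0.0276) and Pygl (-1.33 ± 0.32, 0.0403), 2 of 9 where 3.75% of all genes were called. In CAST they were Pygl (-1.88 ± 0.28, 0.00394) and Ppargc1a (-3.56 ± 0.80, 0.0352), 2 of 9 against 2.66%. In F1 they were Pck1 (-5.75 ± 0.67, 0.00382), Fbp1 (-2.70 ± 0.57, 0.0386), Pklr (-2.20 ± 0.43, 0.0319) and Pygl (-1.89 ± 0.33, 0.0154), 4 of 9 against 1.23%. Leaving out the libraries with many receptor reads left 1 TM liver library in B6 and in F1. The B6 differences were then -2.31 for Pklr, -1.39 for Gys2, -2.195 for Slc2a2 and -3.36 for Ppargc1a. That of Ppargc1a in F1 was -2.69.

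These calls within a genotype depended on the fit and on single libraries. With the replicate number as a block, Pygl in CAST was the 1 call of these 8 that was kept (-1.92, limma adjusted p = 0.0222). The block ended the calls of Pck1 (adjusted p = 0.0874) and Pygl (0.135) in B6, of Ppargc1a in CAST (0.0513), and of Pck1 (0.101), Fbp1 (0.267), Pklr (0.187) and Pygl (0.238) in F1. With edgeR the calls of Pygl in B6 (0.0776) and of Fbp1 (0.188), Pklr (0.141) and Pygl (0.185) in F1 were also lost. Pck1 in B6 was lost by limma without liver control 1 or 3, or kidney TM 2, TM 3, control 2 or control 3 (adjusted p from 0.0553 to 0.0815). The call was also lost without liver TM 3, which left 1 TM liver library (-2.74). In F1, Fbp1 and Pklr were each lost without liver control 1 or 3, any 1 kidney TM library, or kidney control 3 (from 0.0671 to 0.129). Leaving out liver TM 2, which left 1 TM liver library, also ended both calls (-2.56 for Fbp1 and -2.04 for Pklr). So did leaving out liver TM 1 for Fbp1 (-2.83) and kidney control 2 for Pklr (-2.19). Leaving out single libraries gave B6 from 0 to 5 calls, CAST 1 or 2, and F1 from 1 to 4. In CAST Ppargc1a was lost without any 1 of 9 libraries, all but liver TM 2 and TM 3 (adjusted p from 0.0509 to 0.102), and with a pseudocount of 0.5 (0.0692). Pygl was lost in B6 without any 1 of 8 libraries, all but liver TM 3, liver control 2 and kidney TM 3, and in F1 without liver control 1 or control 3 or kidney TM 1, TM 2, TM 3 or control 3 (adjusted p from 0.0504 to 0.127 in both).

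The size of the TM change was next compared between genotypes, by limma's F-test of both genotype terms. None of the 9 genes was called in liver, where 0 of 20157 genes were (0%) although 761 had an unadjusted p below 0.05, Pck1 among them. EdgeR also called 0 genes in liver, and DESeq2 called 104, Pck1 being the 1 member (CAST minus B6 2.06, adjusted p = 0.00536). By limma the change of Pck1 in CAST liver was 1.86 ± 0.75 less negative than in B6 and that in F1 was 1.15 ± 0.75 more negative (adjusted p = 0.707). In kidney none of the 9 was called, against 20 of 22767 genes (0.0878%), and Fbp1 alone had an unadjusted p below 0.05, with F1 minus B6 at 1.22 ± 0.43 and CAST minus B6 at 0.42 ± 0.43 (adjusted p = 0.906). EdgeR and DESeq2 called none of the 9 genes in kidney either.

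Levels were compared between genes as TMM-scaled CPM per kb of merged exons. In B6 control liver the order was Pck1 (996 ± 318, SD), Fbp1 (850.5 ± 209), G6pc (220 ± 164), Pcx (157 ± 13.1), Slc2a2 (121 ± 25.1), Gys2 (117.5 ± 30.5), Pygl (84.7 ± 25.9), Pklr (78.8 ± 23.8) and Ppargc1a (1.41 ± 0.32). The ranges of mean ± SD overlapped between all neighbours in this order except Fbp1 and G6pc, and Pklr and Ppargc1a. Ppargc1a was also last in CAST and F1 control livers, at 1.04 and 1.27 CPM per kb.

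In B6 control kidney the order was Pck1 (609 ± 223 CPM per kb), Fbp1 (346.5 ± 45.9), G6pc (122.5 ± 6.71), Pcx (91.1 ± 8.75), Slc2a2 (28.0 ± 4.27), Ppargc1a (12.9 ± 0.64), Gys2 (6.25 ± 0.66), Pklr (4.60 ± 1.10) and Pygl (2.55 ± 0.20). There the ranges of mean ± SD of neighbours lay apart, except those of Pck1 and Fbp1 and of Gys2 and Pklr. The first 4 genes of liver thus also led in kidney, the glycogen genes and Pklr stood at the end of the order, and Ppargc1a stood above them. In B6 TM livers Fbp1 led with 532 ± 115 CPM per kb, and G6pc (92.3 ± 42.1), Pcx (66.1 ± 6.14) and Pck1 (48.1 ± 27.2) followed with ranges that overlapped between neighbours.

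Genes that encode a second isozyme or paralog of a member were read in the same way. There were 8 such genes (Pck2, G6pc3, Fbp2, Pkm, Pygb, Gys1, Slc2a1 and Ppargc1b). Called higher were 3 of 7 tested in B6 liver (4.8% of all genes), 2 of 7 in CAST liver (11.1%) and 0 of 8 in F1 liver (3.42%). In F1 liver Ppargc1b, the paralog of Ppargc1a, was called lower (-1.89), as were 4.15% of all genes. In kidney 1 of 8 was called higher in B6, 1 in CAST and 2 in F1 (9.73%, 8.69% and 7.54% of all genes). None was called lower there (7.77%, 4.7% and 2.57% of all genes). Pck2, the mitochondrial counterpart of Pck1 and a known target of the ER stress factor ATF4, was called higher in all 3 kidneys and in B6 liver. It averaged 907, 724 and 518 counts in B6, CAST and F1 TM kidneys against 163.5, 139.5 and 112 in controls, with log2 fold changes of 2.46 ± 0.14, 2.37 ± 0.19 and 2.204 ± 0.177 (limma adjusted p = 2.79e-06, 0.000112 and 5.27e-05). In B6 liver it averaged 255.5 against 48.6 in controls (2.26 ± 0.39, adjusted p = 0.005), and in CAST and F1 liver its 1.12 and 0.93 were not called.

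Gys1, the glycogen synthase of muscle and most other tissues, was called higher in B6 liver (1.81) and CAST liver (1.47), and Slc2a1, the transporter of most cell types, in B6 liver (1.87) and F1 kidney (1.07). G6pc3, the ubiquitous phosphatase, was called higher in CAST liver (0.88). Pkm, Pygb and Fbp2 were called in no comparison. These genes were low in liver: Gys1 averaged 112 counts in B6 TM livers against 33.4 in controls, beside 550 and 3167 for Gys2.

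**Figure D4:**
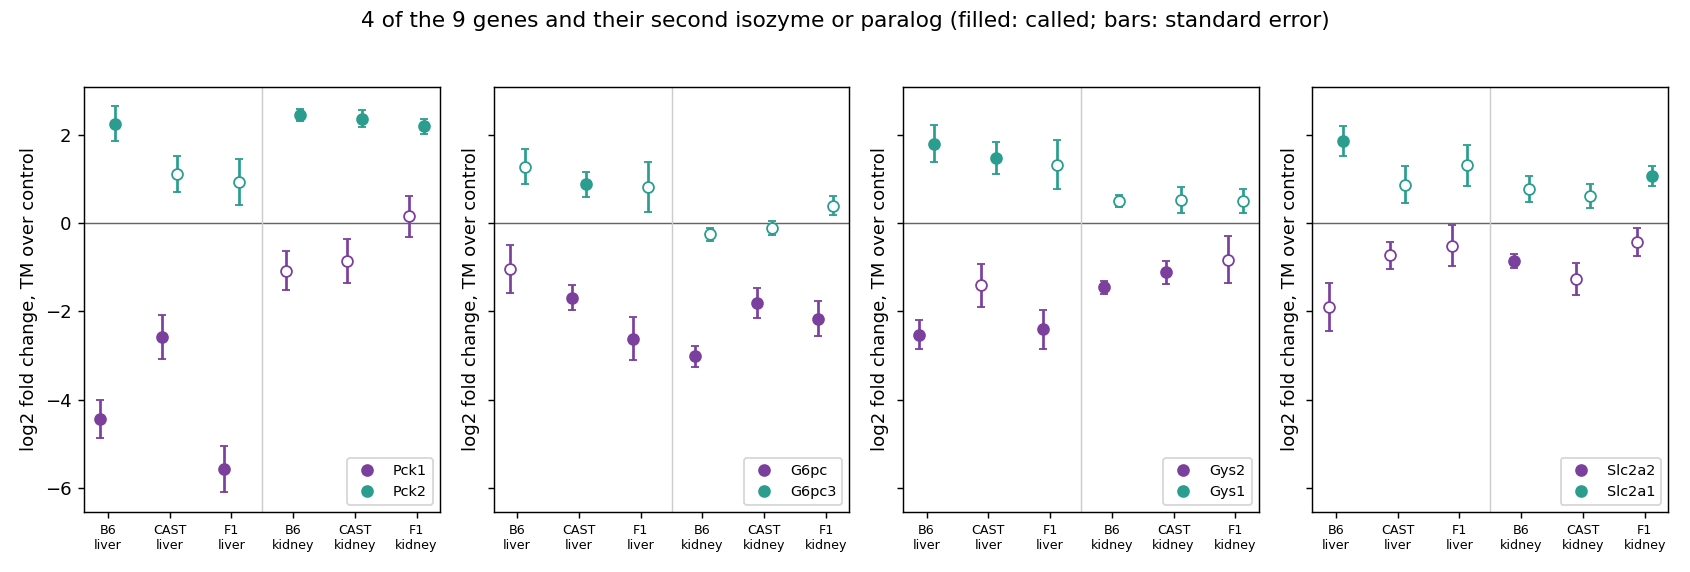
Log2 fold change (TM over control) with standard error of 4 genes of the list (purple) and of their second isozyme or paralog (green) in the 6 comparisons, filled where called. Pck2 and Slc2a1 lie above 0 in every comparison and Gys2 and G6pc below it.

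Other genes of glucose production and pyruvate supply moved in both directions. Of 20 such genes, Pck2 and G6pc3 among them, 3 of 19 tested were called higher and 2 lower in B6 liver, 2 higher and 6 lower in CAST liver, and 2 higher and 6 lower in F1 liver. Of all genes, 4.8%, 11.1% and 3.42% were called higher and 6.45%, 10.4% and 4.15% lower in B6, CAST and F1 liver. In the kidneys these shares were 9.73%, 8.69% and 7.54% higher and 7.77%, 4.7% and 2.57% lower. There the list gave 4 higher and 4 lower in B6, 3 higher and 0 lower in CAST, and 4 higher and 0 lower in F1. Its median log2 fold change ran from -0.295 in CAST liver to 0.41 in F1 kidney. Got1, the cytosolic aspartate aminotransferase, was called higher in all 6 comparisons, with 11140, 6143 and 5485 counts on average in B6, CAST and F1 TM livers against 2448, 910 and 1816 in controls. Gpt2, a mitochondrial alanine aminotransferase, was called higher in the 3 kidneys (2.23, 2.15 and 2.34) and in no liver. Gk, the glycerol kinase that brings glycerol into the pathway, and Pdk1, a kinase that inhibits pyruvate dehydrogenase, were called lower in all 3 livers, with mean log2 fold changes over genotypes of -1.70 for Gk and -1.74 for Pdk1, and in no kidney.

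Among 20 genes of glycolysis, 1 was called higher and 2 lower in B6 liver, 1 higher and 4 lower in CAST liver, 1 higher and 1 lower in F1 liver, and 1 higher and 0 lower in each kidney, with medians from -0.35 to 0.26. Over all genes the shares were 4.8%, 11.1% and 3.42% higher and 6.45%, 10.4% and 4.15% lower in B6, CAST and F1 liver. For the kidneys they were 9.73%, 8.69% and 7.54% higher and 7.77%, 4.7% and 2.57% lower. No gene of glycolysis was called the same way in all 3 genotypes of a tissue. Of 10 other glucose transporters Slc2a9, which carries urate and hexoses, was called lower in all 3 livers (mean -1.78) and in no kidney, and Slc2a5 was called lower in F1 liver and Slc2a8 higher in CAST liver, both named after their values were seen. The medians of the transporter list ran from -0.32 to 0.33, beside -0.13 to 0.21 over all genes.

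Of 23 other glycogen genes, Gys1 and Pygb among them, 3 were called higher and 4 lower in B6 liver, 3 higher and 5 lower in CAST liver (20 tested), and 2 higher and 4 lower in F1 liver, and the medians of the list stayed between -0.07 and 0.11 in all 6 comparisons. Stbd1, a glycogen-binding protein of the ER membrane, was called higher in all 6 comparisons, with 4057, 2448 and 2116 counts on average in B6, CAST and F1 TM livers against 1019, 459 and 556 in controls, and the log2 fold change reached 4.14 ± 0.26 in CAST kidney (limma adjusted p = 3.25e-05). Phkg2, the catalytic subunit of phosphorylase kinase in liver, was called higher in the 3 livers (mean 1.87) and in B6 and F1 kidney. Its regulatory partner Phka2 (mean -1.84), the glycogen phosphatase Epm2a (-1.52) and Ppp1r3c, which brings a phosphatase to glycogen (-1.96), were called lower in the 3 livers, of which all but Ppp1r3c are named after their values were seen. In kidney 2 of the 22 tested were called higher and 2 lower in B6, 1 and 0 in CAST, and 2 of 23 higher and 1 lower in F1. Shares over all genes were 4.8%, 11.1% and 3.42% higher and 6.45%, 10.4% and 4.15% lower in B6, CAST and F1 liver. In the kidneys they were 9.73%, 8.69% and 7.54% higher and 7.77%, 4.7% and 2.57% lower.

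Of 21 regulators of these genes, 7 were called lower and 0 higher in B6 liver, 8 lower and 0 higher in CAST liver, and 6 lower and 1 higher in F1 liver, with medians of -0.78 in B6, -0.73 in CAST and -0.93 in F1. Of all genes, 6.45%, 10.4% and 4.15% were called lower and 4.8%, 11.1% and 3.42% higher in B6, CAST and F1 liver. Nr0b2, a corepressor also known as SHP, fell to 10.3, 21.5 and 9.95 counts in B6, CAST and F1 TM livers, against 261, 319 and 136 in controls. Ppara, the receptor that governs the fasting response of liver, was called lower in all 6 comparisons (mean -2.47 in liver and -1.67 in kidney), and Cebpa, a factor of hepatocyte metabolism (-2.55 in B6, -1.34 in CAST and -2.12 in F1), and Foxo1, an activator of gluconeogenic genes that insulin restrains (mean -1.56, named after its value was seen), in the 3 livers. In kidney 9.73%, 8.69% and 7.54% of all genes were called higher in B6, CAST and F1 and 7.77%, 4.7% and 2.57% lower. There 2 regulators were called higher in each genotype, and 2 were called lower in B6, 2 in CAST and 1 in F1. Those higher were Cebpb, at 522, 390 and 225 counts in B6, CAST and F1 TM kidneys against 76.9, 65.1 and 35.8 in controls, and Crem (mean 1.70), a factor that binds cAMP response elements. The parts of these regulators in the changes of the 9 genes were not tested.

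The genes most like each member were sought among genes with a mean of at least 50 counts in every table, by the mean absolute difference of the log2 fold change over the 6 comparisons. For Pck1 they were Upp2 (0.63), Gpr146 (0.64) and Hsd3b2 (0.65), for G6pc they were C1rl (0.51), Slc36a1 (0.52) and Aspg (0.59), and for Pygl they were Gpc4 (0.11), Atl3 (0.14) and Gsta3 (0.15). The nearest to Fbp1 was Nqo1 (0.18), to Pcx Lamp2 (0.09), to Pklr Etnk2 (0.10), to Slc2a2 Mlxipl (0.16) and to Ppargc1a Zfp970 (0.23). Pck1 and G6pc thus had no gene as close to them as the other members given here had, among the 8190 or 8191 genes compared.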

How the data were processed

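The 33 samples were grouped by genotype, tissue and treatment from their labels. Reads from stranded, rRNA-depleted total RNA libraries had been aligned by the authors to the genome of each strain (Bowtie2 2.2.9) or, for F1 mice, to a masked genome (STAR 2.6), versions being those of the submitters' processing notes, which also list SAMtools 1.12. How reads were counted was not given in the sources used here. Values, entered as signal, are normalized counts as deposited, for which the authors scaled the reads of each gene by size factors from DESeq2 1.28.1. Dividing by 1 factor per library gave whole reads within 0.01 for 100% of values, and these reads served the depths, CPM and the count models. Columns of per-sample values that belong to no sample numbered 0.

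Genes averaging 5 or more normalized counts were tested on log2 (normalized count + 1) with limma 3.58.1 in R 4.3.3, within a table for TM and over tables for the differences between tissues or genotypes. P were adjusted by the Benjamini-Hochberg method over all genes tested. Calls of a TM change took an adjusted p under 0.05 together with a 1.5-fold change or more. Calls of a tissue or genotype difference took the adjusted p alone. Count models of the whole reads (edgeR 4.0.16, DESeq2 1.42.0), other pseudocounts, filters and scalings, limma without trend, a replicate block and leaving out each library were alternatives, and leaving out libraries with many receptor reads was chosen after seeing the data. The fits were tested on simulated data. The members and the lists of other genes were chosen with earlier results of these data known. All members are named, beside their second isozymes, the genes most like them, and from each list up to 3 genes per tissue with the largest change among those called the same way in all 3 genotypes. A few more are marked as named after their values were seen. The results of some genes chosen by this rule are not reported here. The TTACGTCA motif was added after the windows were read.

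Gene symbols were assigned to 50305 of 50420 identifiers. Exon lengths came from GENCODE M21 and promoter windows from RefSeq (GRCm38.p6), with 8 of 9 members matched. No coordinates in the authors' builds are given.

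The labels give replicate numbers to TM and control samples. Same-numbered TM and control libraries deviated together in B6 kidney (r from 0.252 to 0.477 over 3 pairs) and CAST kidney (0.252 to 0.533). For other numbers r was at most 0.151 and 0.206. Deviations from a group mean cancel out within the group, so a higher r for the same number itself lowers r for other numbers. Pairing in these kidneys was thus an assumption, read from the same data. In F1 kidney r was as low as -0.027, and each liver table holds 2 pairs. Across liver and kidney, same-numbered libraries of B6 gave r from -0.016 to 0.196, those of CAST from -0.139 to 0.227 and those of F1 from -0.591 to 0.498. Nothing in the labels says which samples share a mouse. The methods give 6 mice per genotype and as many samples for each organ, so liver and kidney samples share animals. The main fits did not model this, and p-values measure only the spread between these samples.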

Additional observations from a re-analysis of the deposited data

Results flagged for a closer look

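The TM response differed between liver and kidney for 6 genes over the genotypes and for 5 genes within a genotype, by limma's interaction of tissue and treatment, in each case with a log2 fold change more negative in liver. Within genotypes, the call of Pygl in CAST was the 1 that was kept with a replicate block. Over genotypes the liver minus kidney differences were -3.61 for Pck1, -2.47 for Ppargc1a, -1.74 for Pklr, -1.70 for Pygl, -1.37 for Fbp1 and -1.08 for Pcx. Pck1, the cytosolic carboxykinase, differed by -3.36 in B6 and by -5.75 in F1. Pygl, the liver glycogen phosphorylase, differed by -1.33 in B6, -1.88 in CAST and -1.89 in F1. Ppargc1a differed by -3.56 in CAST, where its TM livers held 0 to 5 reads, and Fbp1 by -2.70 and Pklr by -2.20 in F1.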

How the results depend on the processing

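Most values kept their side of the threshold: of the alternative values of single genes, 2198 did, 148 lost a call and 48 gained one. None that was called in the main or the alternative fit changed direction, and the direction of values called in neither was not counted. The 2198 include genes not called in the main fit, which had no call to lose, among them all 9 in the genotype comparisons. Without limma's trend 0 genes were called in B6 liver, 4 in CAST liver, 0 in F1 liver, 0 in F1 kidney, and the tissue differences numbered 0 in B6, 1 in CAST and 1 in F1. With edgeR 3 were called in B6 liver, and 1 differed between tissues in B6 and 1 in F1. DESeq2 gave 4 tissue differences in B6 and 1 genotype difference in liver. Without the filter 1 was called in F1 liver and 1 tissue difference in B6, and a pseudocount of 0.5 left 1 tissue difference in CAST. Without the libraries with many receptor reads 3 were called in F1 kidney and 6 tissue differences in B6. With the replicate block 0, 1 and 0 tissue differences were called in B6, CAST and F1. In B6, CAST and F1 liver the block gave 8, 9 and 8 called genes, where the numbers are not shown to pair. In CAST kidney it gave 3, with pairing assumed. Leaving out single libraries gave 2 to 7 calls in B6 liver (2 without TM 1 or control 3), 3 to 7 in CAST liver (3 without control 2, 4 without TM 3 or control 3), 2 to 7 in F1 liver (2 without TM 1, 4 without control 1 or control 3), 3 to 4 in B6 kidney, 1 to 5 in CAST kidney (5 without control 1, 1 without TM 2, TM 3, control 2 or control 3) and 1 to 3 in F1 kidney (3 without control 1). It gave 0 to 5 tissue differences in B6 (5 without liver TM 3, and 0 without liver control 1 or kidney TM 2, control 2 or control 3), 1 to 2 in CAST, 1 to 4 in F1, 5 to 7 over genotypes, and 0 genotype differences. The causes were not tested. The 2 or 3 libraries per group limit every comparison, and the 0 to 49 reads of Ppargc1a in TM livers limit its fold change.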
